A study of Mus musculus with 40 samples.

Results

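Interferon-inducible GTPases are large and mid-sized GTP-binding proteins that cells make in response to interferons. The 10 genes described here are 4 guanylate-binding proteins (Gbp2, Gbp3, Gbp7 and Gbp10) and 6 immunity-related GTPases (Igtp, Iigp1, Irgm1, Irgm2, Tgtp1 and Tgtp2), out of 17809 genes listed in the expression tables of mouse aorta. They were picked by symbol because some of them differed most between untreated aortas of mice given cyclosporin A (CsA) and untreated wild-type (WT) aortas, so that difference is given below as a description, without a test. All 10 were listed among the 15399 genes of the CsA experiment. In the genotype experiment 9 of them were among 17402 genes, and Gbp10 was not listed.

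The study asked which aortic genes respond to angiotensin II (Ang-II), a hormone that raises blood pressure, through calcineurin (Cn), the calcium-activated phosphatase that dephosphorylates NFAT transcription factors. CsA blocks that phosphatase activity. RNA was sequenced from aortas of male mice in 2 experiments, of 18 and 22 libraries, and each library pooled 3 aortas stripped of adventitia and perivascular tissue. Replicates were separate pools, so the p-values below measure the spread between such pools.

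In the CsA experiment C57BL/6J mice of 10 to 12 weeks either received CsA at 5 mg/kg/d from an implanted minipump for 5 days (CsA) or carried no pump at that stage (WT). Both kinds were then left untreated or infused with Ang-II at 1 µg/kg/min from a minipump for 2 or 24 h, with 3 libraries in each of the 6 groups. Ang-II-treated mice entered a pool only if their systolic pressure exceeded 130 mmHg, and CsA mice were removed where inhibition of NFAT dephosphorylation could not be shown in the thymus. The drug and the implanted pump cannot be told apart in the untreated mice. In the genotype experiment all libraries were labelled as floxed for CnB1, which encodes the regulatory subunit of calcineurin, and all mice received tamoxifen at 1 mg per day for 5 days, at 10 to 12 weeks of age and 6 weeks before Ang-II. Libraries labelled negative for Myh11-CreERT2 were the controls (Cn-Ctl), and those labelled positive were SM-Cn-/-. The study's methods also count mice with Myh11-CreERT2 and unfloxed CnB1 among its controls, and the labels of these libraries name none. The Myh11 promoter drives Cre in smooth muscle and leaves CnB1 in other cells. Per those methods, recombination was checked by PCR on a piece of aorta, and SM-Cn-/- mice without a detected deletion were removed. These mice were untreated or received Ang-II for 2, 6 or 24 h, with 2 Cn-Ctl libraries untreated and at 24 h and 3 libraries in each of the other 6 groups. The methods state that 1 untreated Cn-Ctl replicate was dropped because it lay far from the other 2 in a principal component analysis. They name no such removal at 24 h. For untreated Cn-Ctl the p-values therefore measure the spread between the pools that were kept. Treated Cn-Ctl mice again had to exceed 130 mmHg, and treated SM-Cn-/- mice were taken without that requirement.

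Interferon gamma, the type II interferon of T and NK cells, binds the receptor chains Ifngr1 and Ifngr2, which signal through the kinases Jak1 and Jak2. The signal acts on promoters that hold GAS elements and induces Irf1, which with other factors acts on ISRE elements, the sites also used by type I interferons. Guanylate-binding proteins and immunity-related GTPases are among the most strongly induced products of this pathway in mice: they gather on the membranes of vacuoles that hold intracellular parasites and bacteria. Among the immunity-related GTPases, Irgm1, Irgm2 and Igtp act as regulators that keep the others inactive on the cell's own membranes, and Iigp1, Tgtp1 and Tgtp2 are effectors that load onto the vacuole.

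Several of these genes lie side by side (mouse build GRCm38). Gbp7 (chr3:142530342-142550149), Gbp3 (chr3:142560026-142573209) and Gbp2 (chr3:142620602-142638008) are neighbours on the plus strand of chromosome 3, and Gbp10 (chr5:105215699-105239533, minus strand) belongs to a separate cluster. Irgm1 (chr11:48861968-48871683), Tgtp1 (chr11:48985327-48994172) and Tgtp2 (chr11:49057194-49064206) lie on the minus strand of chromosome 11. On the plus strand of the same chromosome, Igtp (chr11:58199556-58207591) lies within the span of Irgm2 (chr11:58199618-58222782) but for its first bases. Each is annotated as protein coding.

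The upstream sequences of the 5 genes with both interferon-related letter patterns are shown because they set out what the genes of the group share apart from their expression. The bases before the transcript start come from RefSeq (build GRCm38.p6), which had an entry that was used for 8 of the 10 genes, not for Gbp10 or Iigp1. Capitals mark matches, on either strand, to the ISRE pattern (GAAA, any 2 bases, GAAA) and to the GAS pattern TTCNNNGAA. The stretches are 120 bases each, read 5′ to 3′ on the gene's strand, at chr11:58199436-58199555 (Igtp, plus), chr11:58214852-58214971 (Irgm2, plus), chr11:48992265-48992384 (Tgtp1, minus), chr11:49064224-49064343 (Tgtp2, minus) and chr3:142530201-142530320 (Gbp7, plus).
Igtp: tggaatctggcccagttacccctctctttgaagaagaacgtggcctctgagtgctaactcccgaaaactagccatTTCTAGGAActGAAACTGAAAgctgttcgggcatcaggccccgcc
Irgm2: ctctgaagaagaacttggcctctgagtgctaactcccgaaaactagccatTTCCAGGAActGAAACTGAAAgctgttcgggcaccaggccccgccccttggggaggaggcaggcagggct
Tgtp1: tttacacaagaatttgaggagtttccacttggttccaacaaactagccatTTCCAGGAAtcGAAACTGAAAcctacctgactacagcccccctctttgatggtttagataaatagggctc
Tgtp2: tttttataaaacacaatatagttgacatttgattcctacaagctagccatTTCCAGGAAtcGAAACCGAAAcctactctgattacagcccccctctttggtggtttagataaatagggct
Gbp7: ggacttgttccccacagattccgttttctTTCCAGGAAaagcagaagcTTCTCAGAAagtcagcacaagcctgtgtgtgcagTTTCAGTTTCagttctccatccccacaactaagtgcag

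In the 250 bases before the start, at least 1 ISRE match stood in each of the 8 genes with an entry, against 2.98% of all 32851 mouse promoters. A GAS match stood in 5 of the 8, against 7.02% of all promoters, and both patterns stood in those 5, against 0.332%. In Igtp, Irgm2, Tgtp1 and Tgtp2 the GAS match was followed 2 bases later by the ISRE match, the pair lying 45 to 25 bases before the start in Igtp and 88 to 68 bases before it in Tgtp1. That arrangement, which was looked for after it had been seen in these genes, occurred in 5 of the 32851 promoters (0.0152%), and the fifth gene was Gm12185, which overlaps Tgtp1. Igtp and Irgm2 shared an unbroken run of 55 bases in these windows, and Tgtp1 and Tgtp2 shared 27. Gbp7 held 2 GAS matches and 1 ISRE match, the first promoter of Gbp3 held 2 overlapping ISRE matches, and Gbp2 and Irgm1 held 1 and 2 ISRE matches that fell in annotated exons. A match says that these letters are present, not that a factor bound there.

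Some of these genes could not be separated fully by the reads. Of all 50-base words in the annotated transcripts of Tgtp1, 79.4% also occur in Tgtp2, and 85.8% of the words of Tgtp2 occur in Tgtp1. The share of their joint signal that was assigned to Tgtp1 went from 18.04% to 66.4% over the libraries of the CsA experiment and from 0.575% to 99.1% over those of the genotype experiment. These paralogs are therefore best read as a pair. Of the words of Gbp10, 84.1% occur in another gene, Gbp6 and Gbp4 among them. With Gbp6, a guanylate-binding protein of the same cluster, it shared 73.3%, and its level is uncertain for that reason. For the other 7 genes the share of words found in another gene was between 0.310% (Irgm1) and 12.7% (Gbp7).

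Values are signals, the authors' read counts scaled by library size. Libraries held 18976266 to 38900009 reads in the CsA experiment and 2728007 to 10250178 in the genotype experiment. The gene-level signal of CnB1 (symbol Ppp3r1) was 41.8 to 118 in libraries labelled SM-Cn-/- and 45.7 to 134 in Cn-Ctl libraries, ranges that overlap, and it cannot show which of its exons were read. Differences are given as log2(signal + 0.5) with the standard error (SE) of a limma model over each table, and a gene is called at a Benjamini-Hochberg adjusted p below 0.05 over all 13731 genes tested in the CsA experiment or 14412 in the genotype experiment.

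In untreated aortas the 10 genes were higher in every CsA library than in every WT library. The differences ran from 1.83 (Irgm1) to 4.78 (Gbp10) on the log2 scale, with a median of 3.04 against −0.02 over all genes tested. Their summed signal was 99.4 to 140 in the WT libraries and 472 to 1317 in the CsA libraries. Of all genes tested, 23.8% also had every CsA library above every WT library, and 25.2% were called in this contrast, but the genes were chosen on it and no test of them is given. The number of cells that express a gene and its RNA per cell cannot be told apart in such bulk samples.

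Among the effectors, Tgtp1 had signals of 3.17, 1.67 and 2.01 in the untreated WT libraries (replicates 1 to 3) and 26.2, 72.8 and 56.5 in the untreated CsA libraries. Its partner Tgtp2 had 6.37, 4.14 and 5.78 in WT and 36.5, 101 and 50.8 in CsA. Both were low in every WT library, and the lowest CsA library was replicate 1 for both, as for all 10 genes. Read as a pair, Tgtp1 and Tgtp2 differed by 3.71 on the log2 scale, and separately by 4.15 and 3.30. Iigp1, the effector for which assembly on the parasite vacuole is best described, had 22.7, 12.7 and 17.2 in WT and 86.3, 229 and 245 in CsA, a log2 difference of 3.27. Its groups were far apart, although CsA replicate 1 was nearer to WT than replicates 2 and 3 were.

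Among the regulators, Igtp had signals of 11.8, 7.18 and 6.83 in untreated WT and 61.4, 182 and 174 in untreated CsA, a log2 difference of 3.82. Irgm2 had 16.4, 10.2 and 12.5 in WT and 56.1, 125 and 111 in CsA, a difference of 2.80. Igtp and Irgm2 overlap in the genome and share 11.8% of the words of Igtp. Their CsA libraries had the same order, with replicate 2 highest and replicate 1 lowest, as did those of most of the 10 genes. Irgm1, a regulator also tied to autophagy, had 17.8, 14.6 and 16.97 in WT and 33.0, 100 and 63.4 in CsA. It had the lowest difference of the 10 genes, 1.83, and its lowest CsA library was still above its highest WT library.

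Among the guanylate-binding proteins, Gbp2 had signals of 28.8, 23.1 and 29.1 in untreated WT and 65.4, 243 and 152 in untreated CsA, a log2 difference of 2.30. Gbp3 had 15.2, 9.54 and 9.95 in WT and 38.3, 110 and 72.8 in CsA, a difference of 2.53. Gbp7, which is known for bringing oxidase and autophagy proteins to vacuoles, had 17.5, 15.2 and 16.1 in WT and 54.3, 115 and 87.3 in CsA, also a difference of 2.30. These 3 neighbours on chromosome 3 shared the order of the CsA libraries, with replicate 2 highest and replicate 1 lowest. That order was not particular to them: replicate 2 was highest for 8 of the 10 genes and replicate 1 lowest for 10 of 10. Gbp10 had only 0.729, 1.14 and 0.223 in WT and 14.2, 38.6 and 52.6 in CsA. Its difference of 4.78 was the first in order among the 13731 genes tested, and Tgtp1 was second, Igtp sixth, and Irgm1 in place 313.

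The same library stood apart for each of the 10 genes. Replicate 1 of untreated CsA was the lowest of its group in 10 of 10, at 0.312 to 0.537 times the mean of replicates 2 and 3. Without it the median difference from WT was 3.39. Per kilobase of exon, the untreated WT means ran from 0.180 (Gbp10) to 10.7 (Gbp2). In untreated CsA they ran from 9.07 (Gbp10) to 68.8 (Igtp), with Gbp2 next at 61.1. The libraries of Igtp and Gbp2 spread more widely than that gap, and the order of these means was not tested.

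**Figure D1:**
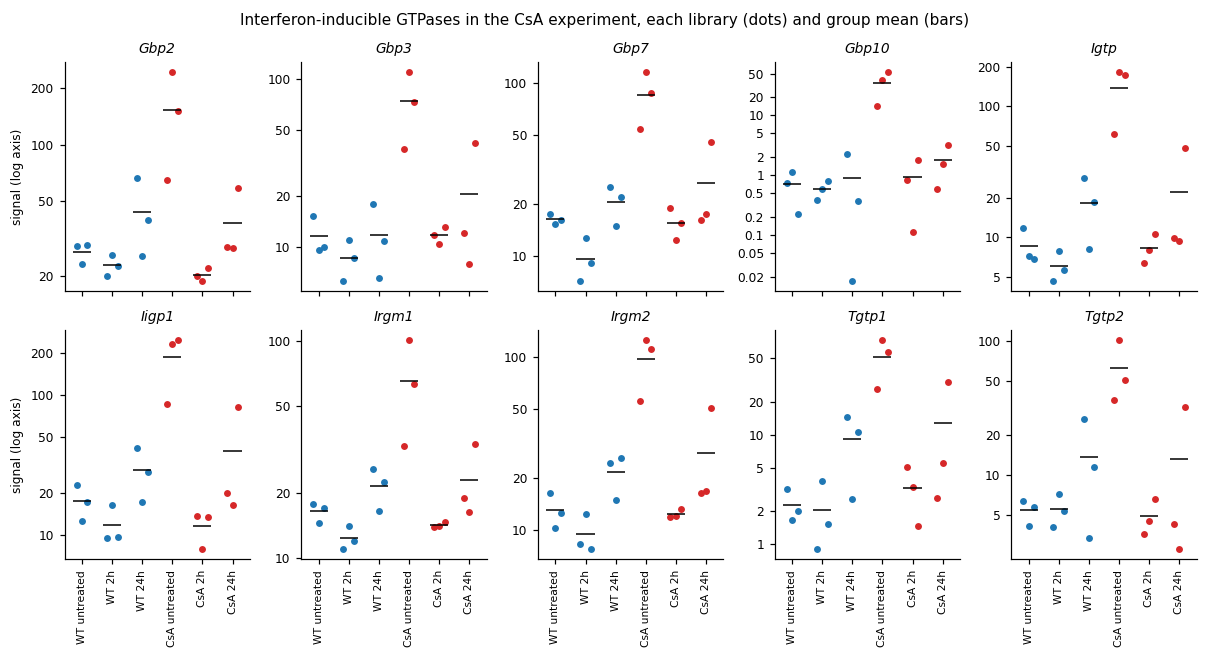
Signal of each of the 10 genes (y axis, log scale) in the 18 libraries of the CsA experiment, grouped along the x axis by pretreatment and hours of Ang-II; dots are libraries, bars group means, blue WT and red CsA. The untreated CsA libraries lie above the untreated WT libraries in every panel, and the CsA libraries after Ang-II lie near the WT ones except replicate 3 at 24 h.

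The other genes of the interferon pathway were read from lists chosen with earlier results in view, and their values in the untreated contrast describe the same libraries. Interferon gamma and interferon beta were not listed in the table, nor were Il12a, Il12b and Tnf: 2 of 11 ligands and inducing cytokines were, Il15 and Il18, and neither was called. The receptor chain Ifngr1 had a mean signal of 86.8 ± 10.1 (SD, n = 3) in untreated CsA and 61.1 ± 6.19 in WT, whereas Ifngr2 had 36.7 ± 0.598 and 57.4 ± 2.96. The kinases differed little, by 0.24 (Jak1) and −0.26 (Jak2) on the log2 scale. The transcription factor Irf1 differed more, with 60.5 ± 25.8 in CsA and 19.97 ± 3.16 in WT. Of 18 receptors and transducers 9 were called higher and 2 lower in untreated CsA, where 13.9% of all genes were called higher and 11.4% lower, and the median of the 18 was 0.26.

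Targets of the pathway were higher in untreated CsA as the 10 genes were, though by less at the median. These lists were chosen with earlier results known. The libraries are those that chose the 10 genes, so the counts are a description. In this contrast 13.9% of all genes were called higher and 11.4% lower. Of 15 other interferon-inducible GTPases tested 12 were called higher and 0 lower by limma, with a median of 1.94. Gbp6 (3.53), Gbp4 (2.98), Gm4951 (2.83) and Gm4841 (2.77) had the greatest differences. Gbp6 and Gbp4 share words with Gbp10, so their reads may not be fully separate from its reads. Of 25 genes known mostly as type II interferon targets 24 were called higher and 0 lower, with a median of 1.52. They included Serpina3g (2.75), the checkpoint ligand Cd274 (2.67), the immunoproteasome subunit Psmb8 (2.59) and Nlrc5 (2.52), the transactivator of MHC class I genes. Of 39 genes known mostly as type I targets 34 were called higher and 0 lower, with a median of 1.46, led by the nucleic acid sensor Zbp1 (3.27), Ifi27l2a (2.54), Rtp4 (2.47) and Ifit1 (2.43). Among 7 inhibitors of the pathway 2 were called higher and 1 lower. No call was made among 9 calcineurin-NFAT targets, whose median was −0.19.

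**Figure D2:**
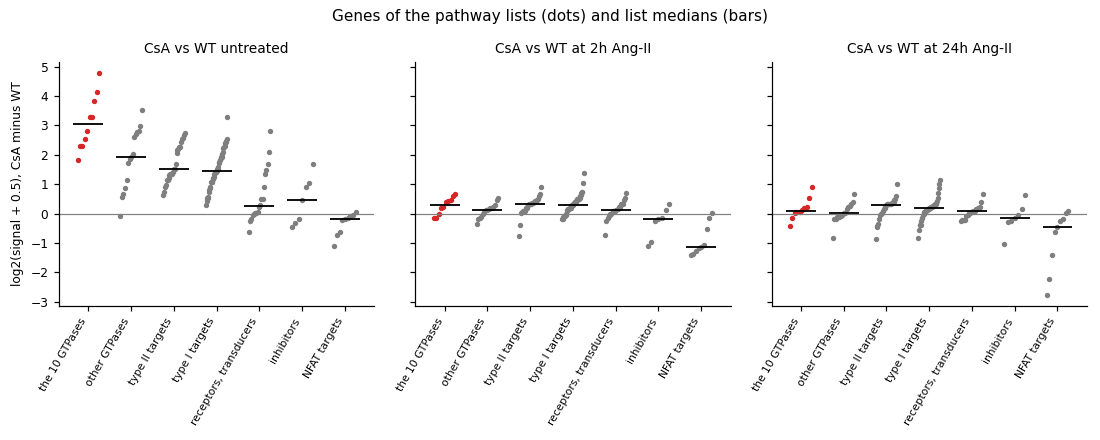
Difference between CsA and WT on the log2(signal + 0.5) scale (y axis) for each gene of the pathway lists (x axis), untreated and after 2 and 24 h of Ang-II; dots are genes, bars list medians, and the 10 interferon-inducible GTPases are red. Medians of the GTPases are 3.04 in untreated aortas, which chose them, and 0.30 and 0.10 after Ang-II, and the NFAT targets have a median of −1.14 at 2 h.

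Markers of several cell types also differed between untreated CsA and WT, where 13.9% of all genes were called higher and 11.4% lower. All 10 macrophage markers were called higher in CsA (summed signal 353 to 422, against 133 to 189 in WT), as were 9 of 10 endothelial markers (1147 to 1344, against 466 to 758) and 6 of 7 adipose markers (2384 to 4279, against 360 to 688). Of 9 smooth muscle markers 8 were called lower (17652 to 19760, against 27226 to 37298). Of 14 T and NK cell markers 4 were listed, with a summed signal of 2.04 to 3.83 in CsA and 2.48 to 3.37 in WT; Cd3e, Cd3d, Cd3g, Ncr1 and Gzmb were not listed, and none of the 4 was called (median 0.06). Of 6 neutrophil markers 5 were listed and 2 were called higher, S100a8 and S100a9. No call was made among 7 fibroblast, 5 blood, 3 listed dendritic cell and 1 listed B cell marker. The part of these cell types in the difference between the GTPases was not tested. Replicate 1 of untreated CsA, the lowest for the 10 GTPases, had a macrophage sum of 414, above the 353 of replicate 2, and the lowest endothelial sum of its group, 1147.

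**Figure D3:**
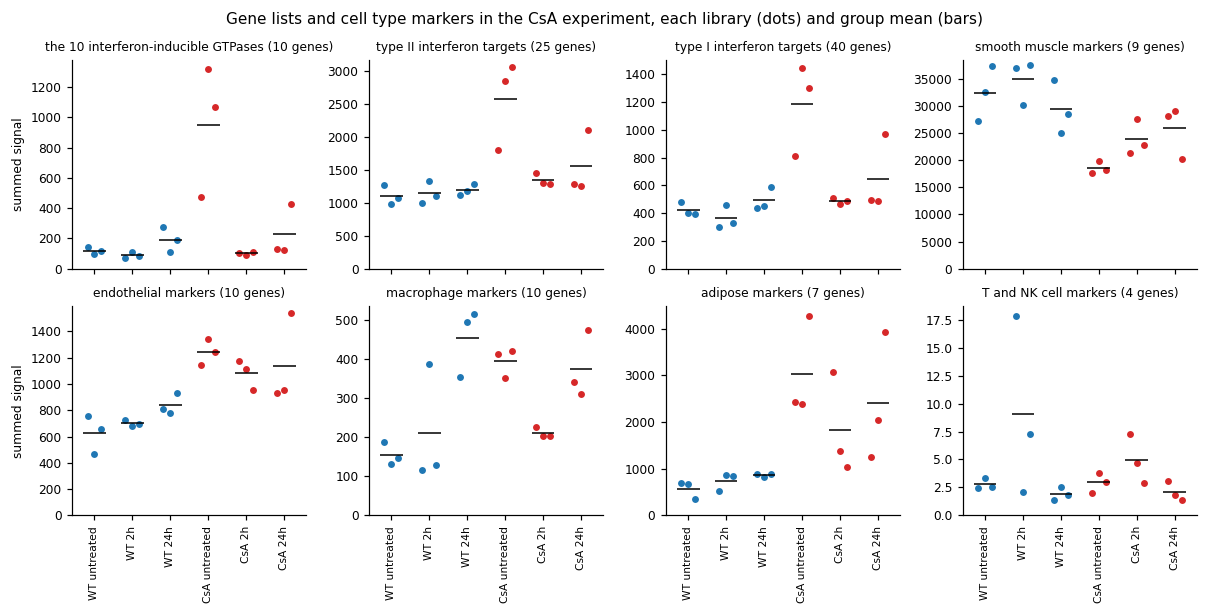
Summed signal (y axis, starting at 0) of the 10 GTPases, of interferon target lists and of cell type markers in the 18 libraries of the CsA experiment, grouped along the x axis; dots are libraries and bars group means, with WT blue and CsA red. Adipose markers lie higher in every CsA library than in every WT library at the same time, and the sum of the GTPases does so only in untreated aortas.

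After 2 h of Ang-II no difference between CsA and WT was detected for these genes. Their summed signal was 91.4 to 112 in the CsA libraries and 72.1 to 112 in the WT libraries, and no gene had groups that did not overlap, where 9.82% of all genes had every CsA library above every WT library and 10.4% every one below. By limma 0 of 10 were called, with 0 at an unadjusted p below 0.05 and 0 by edgeR or DESeq2, where 1.33% of all genes were called. Of the 10 differences 7 were above 0, and they ran from −0.16 to 0.68 with a median of 0.30, which was 0.18 without WT replicate 1.

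Igtp had signals of 6.41, 7.95 and 10.6 in CsA and 4.64, 7.92 and 5.58 in WT at 2 h, and its groups overlapped (log2 difference 0.43, SE 0.56, 95% interval −0.75 to 1.62, limma adjusted p = 0.706). Gbp7 had 19.0, 12.3 and 15.4 in CsA and 7.16, 12.7 and 9.07 in WT, with a single CsA library below the highest WT library (0.68, SE 0.35, −0.05 to 1.41, limma adjusted p = 0.304). Gbp2 had 20, 18.9 and 22.1 in CsA and 19.9, 26.0 and 22.7 in WT, again with overlap (−0.16, SE 0.39, −0.997 to 0.67, limma adjusted p = 0.850). Over the 10 genes the highest upper limit of an interval at 2 h was 2.15, for Tgtp1. Adipose markers summed to 1042 to 3078 in CsA and 531 to 870 in WT at this time, none of the 7 was called, and of the endothelial markers Cldn5 was called higher (1.26).

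After 24 h of Ang-II the same held, with wider scatter. By limma 0 of 10 were called between CsA and WT, with 0 at an unadjusted p below 0.05 and 0 by edgeR or DESeq2, where 5.56% of all genes were called. The differences ran from −0.42 to 0.90 with a median of 0.10, and no gene had groups that did not overlap, against 13.3% of all genes with every CsA library above WT and 13.7% with every one below.

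Igtp had 9.79, 9.37 and 47.8 in CsA and 28.4, 8.12 and 18.5 in WT at 24 h: CsA replicate 3 was the highest and the other CsA libraries were among the lowest (0.02, SE 0.56, −1.17 to 1.21, limma adjusted p = 0.992). Gbp3 had 12.03, 7.90 and 41.6 in CsA and 17.9, 6.50 and 10.8 in WT (0.53, SE 0.49, −0.51 to 1.58, limma adjusted p = 0.549). Gbp10 had low signals, with 0.596, 1.54 and 3.19 in CsA and 2.28, 0.017 and 0.374 in WT (0.90, SE 0.64, −0.46 to 2.27, limma adjusted p = 0.416). WT replicate 2 held 0 reads of it, and the other libraries at 24 h held 10 to 124. That CsA library, replicate 3, was the highest of its group in 10 of 10 genes, at 1.90 to 9.02 times the mean of replicates 1 and 2. Without it the median difference was −0.43, Igtp differed by −0.74 and Gbp3 by −0.14. WT replicate 2 was the lowest of its group in 10 of 10, and without it the median was −0.17 and Igtp differed by −0.46. The same CsA replicate had the highest endothelial sum of the 12 treated libraries, 1536, the highest adipose sum, 3932, and the lowest smooth muscle sum, 20216. The part of these cells was not tested.

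**Figure D4:**
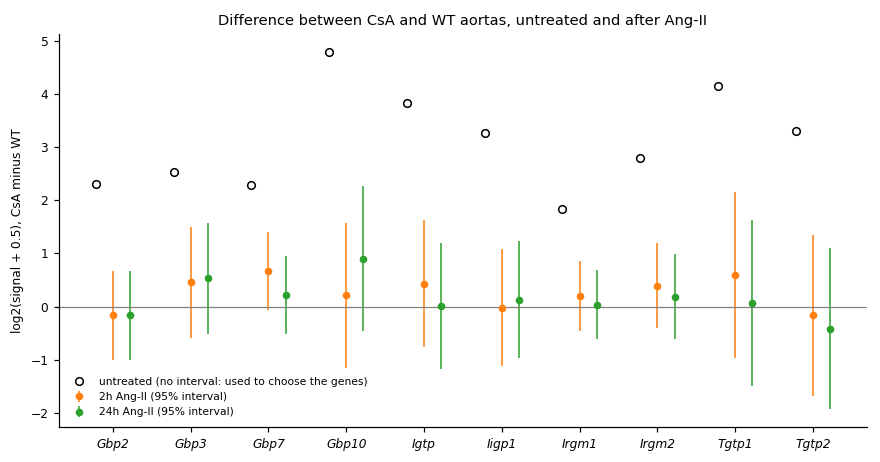
Difference between CsA and WT (y axis, log2(signal + 0.5)) for each of the 10 genes (x axis), untreated (open circles, no interval because these values chose the genes) and after 2 h and 24 h of Ang-II (filled, with 95% intervals from the limma model). The untreated values lie between 1.83 and 4.78, and each interval after Ang-II includes 0.

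The pathway lists had the same pattern in the treated libraries. At 2 h limma called 0 of 15 other interferon-inducible GTPases (median 0.12), 0 of 25 type II targets (0.32), 0 of 39 type I targets (0.29) and 0 of 7 inhibitors. For the type I targets the count was 1 by DESeq2 and 2 without WT replicate 2 at 2 h. At 24 h limma called 0 of each, with medians of 0.02, 0.29 and 0.18, and DESeq2 called 1 type I target. Irf1 differed by 0.21 at 2 h and 0.10 at 24 h and was not called. Of the receptors and transducers only Nfkbiz, an inducible regulator of NF-κB, was called at 2 h, where it was lower in CsA (−0.74, SE 0.17, limma adjusted p = 0.0455), and 0 of 18 were called at 24 h.

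Calcineurin-NFAT targets were called in these same libraries. At 2 h 3 of 9 were lower in CsA and 0 higher, where 0.939% of all genes were called lower (median of the 9 −1.14): Rcan1, a feedback inhibitor of calcineurin (−1.16, SE 0.21, limma adjusted p = 0.0182), and the orphan nuclear receptors Nr4a2 (−1.42) and Nr4a3 (−1.28). At 24 h 4 of 9 were lower, where 3.55% of all genes were called lower, namely Rcan1 (−1.41), Nr4a2 (−0.63), Il6 (−2.22) and Ptgs2 (−2.76). These calls depended on the model over all groups. With only the groups compared, 0.0146% of all genes were called at 2 h and 0% at 24 h. The 4 calls at 24 h were lost there, and not all 3 at 2 h could hold. In untreated aortas Rcan1 differed by −0.14 and Nr4a2 by −0.05, and 0 of the 9 were called.

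Between 2 and 24 h of Ang-II 2 of the 10 GTPases rose in WT, Gbp7 and Irgm2, and none passed the test in CsA. In WT the 10 differences ran from 0.01 (Gbp10) to 1.80 (Tgtp1), with a median of 0.96 against −0.01 over all genes. Gbp7 had signals of 7.16, 12.7 and 9.07 at 2 h and 25.1, 14.8 and 21.8 at 24 h and rose by 1.06 (SE 0.35, limma adjusted p = 0.0245). Irgm2 had 8.29, 12.3 and 7.74 at 2 h and 24.2, 14.8 and 26.0 at 24 h and rose by 1.15 (SE 0.38, limma adjusted p = 0.0257). For both genes the lowest library at 24 h, replicate 2, was only just above the highest at 2 h.

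A further 3 genes had groups in WT that did not overlap, Igtp, Iigp1 and Irgm1, and 5 of 10 genes without overlap stand beside 23.6% of all genes with every 24 h library above every 2 h library. Igtp differed by 1.39 (SE 0.56, limma adjusted p = 0.0640), Tgtp1 by 1.80 (SE 0.73, adjusted p = 0.0669) and Iigp1 by 1.22 (SE 0.52, adjusted p = 0.0791), and none of these passed. Called were 2 of 10, both higher, where 17.2% of all genes were called higher and 36.2% in either direction, so the share is near the background. The count was 2 by edgeR and 6 by DESeq2. It was 0 without WT replicate 1 or 3 at 2 h or WT replicate 1 or 3 at 24 h, and 5 without WT replicate 2 at 24 h. Macrophage markers moved with these genes: 9 of 10 were called higher at 24 h in WT (median 1.54, summed signal 117 to 388 at 2 h and 355 to 516 at 24 h), and their part was not tested.

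In CsA the difference between 24 and 2 h was also above 0 for 10 of 10, with a median of 0.76, and by limma 0 were called, with 2 at an unadjusted p below 0.05 and 2 by edgeR and by DESeq2, where 18% of all genes were called. Iigp1 had 13.6, 7.95 and 13.4 at 2 h and 19.9, 16.4 and 82.6 at 24 h, with no overlap but a single library far above the rest (1.37, SE 0.52, limma adjusted p = 0.0795). Irgm2 had 11.8, 11.96 and 13.2 at 2 h and 16.4, 16.7 and 50.6 at 24 h (0.94, SE 0.38, limma adjusted p = 0.0935). The groups did not overlap for 4 of 10 genes, where 15.8% of all genes had every 24 h library above every 2 h library. Without CsA replicate 3 at 24 h the median was 0.28, and without replicate 2 at 24 h limma called 1 gene. Of the macrophage markers 6 of 10 were called higher at 24 h in CsA, with a median of 0.80, where 7.44% of all genes were called higher. Markers of other cell types are not given for the change from 2 to 24 h in either arm. The change in the CsA difference from 2 to 24 h was not called for any of the 10 (0 at an unadjusted p below 0.05, 0 by edgeR or DESeq2), with a median of −0.18, where 0.211% of all genes were called.

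Against the untreated aortas of their own arm, which are the libraries that chose the genes, CsA aortas had lower values of the 10 genes after Ang-II. The median was −3.15 at 2 h and −2.26 at 24 h. Every treated library was below every untreated one for 10 of 10 genes at 2 h and for 7 of 10 at 24 h, where 16.9% and 14% of all genes had that order. In WT the medians were −0.41 at 2 h (−0.62 to −0.22 with a library left out) and 0.63 at 24 h (0.23 without replicate 1 at 24 h), and 2 of 10 genes had every 2 h library below every untreated one (20.2% of all genes). Over the 6 groups, untreated CsA had the highest mean for 10 of 10 genes, CsA at 24 h was next for 8 and WT at 24 h for 2. Libraries of untreated CsA, which chose the genes, still overlapped those of the next group for Gbp2, Gbp3, Irgm1 and Tgtp1. They lay above them for the other genes, and no share over all genes was computed for that order. From second place down, neighbouring groups overlapped for every gene.

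The genotype experiment used other mice and other libraries, in which calcineurin was targeted by a gene deletion in place of a drug. Untreated libraries labelled SM-Cn-/- had the highest mean signal of all 8 groups for 9 of 9 genes. No share over all genes was computed for that order, and the 9 genes were read in the same few libraries. The difference from untreated Cn-Ctl was above 0 for 8 of 9, with a median of 0.41 against −0.0009 over all genes. That median went from 0.22 without SM-Cn-/- replicate 1 to 0.75 without Cn-Ctl replicate 2. However, limma called 0 of 9, with 0 at an unadjusted p below 0.05 and 0 by edgeR or DESeq2, where 0.0139% of all genes were called. Igtp had 20.5, 22.3 and 17.2 in SM-Cn-/- libraries and 16.7 and 7.39 in Cn-Ctl libraries (0.81, SE 0.41, limma adjusted p = 0.967). Iigp1 had 35.5, 20.03 and 30.4 against 17.7 and 13.8 (0.82, SE 0.41, limma adjusted p = 0.969). Groups did not overlap for 3 of 9 genes, Igtp and Iigp1 among them, where 11.4% of all genes had every SM-Cn-/- library higher. The smallest read counts behind these genes in this experiment were 9 for Igtp and 26 for Iigp1. Tgtp1 and Tgtp2 were each at 3 reads or fewer in 4 of 22 libraries, so that no fold is given for them. Both still enter the counts and medians of this experiment. Tgtp1 was the gene whose difference was below 0, although its untreated SM-Cn-/- mean was the highest. Untreated SM-Cn-/- replicate 2 held 0 reads of it.

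After 2 h of Ang-II the 9 genes had a median difference of 0.51 between SM-Cn-/- and Cn-Ctl libraries (0.31 without Cn-Ctl replicate 1), and by limma 0 were called, with 3 at an unadjusted p below 0.05 and 0 by edgeR or DESeq2, where 3.71% of all genes were called. Iigp1 had 18.04, 15.9 and 18.5 in SM-Cn-/- libraries and 5.28, 4.49 and 14.9 in Cn-Ctl libraries, with no overlap because the third Cn-Ctl library was just below the lowest of the others (1.23, SE 0.37, limma adjusted p = 0.0691). Groups did not overlap for 4 of 9 genes, where 10.2% of all genes had every SM-Cn-/- library higher. Without that Cn-Ctl library limma called 1 gene. At 6 h the median was 0.17, which turned to −0.12 without SM-Cn-/- replicate 1, was 0.07 without SM-Cn-/- replicate 2 and 0.10 without Cn-Ctl replicate 1, and 0 were called by limma, edgeR or DESeq2, with 1 at an unadjusted p below 0.05, where 1.98% of all genes were called. Igtp had 9.82, 9.82 and 14.4 against 6.05, 5.54 and 2.98 at 6 h and was the only gene with no overlap (1.18, SE 0.36, limma adjusted p = 0.105), where 6.64% of all genes had every SM-Cn-/- library higher.

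At 24 h the differences were above 0 for 9 of 9, with a median of 0.59 against 0.04 over all genes, and 1 of 9 was called, where 2.27% of all genes were called higher and 4.95% in either direction. Gbp3 had signals of 9.95, 8.42 and 9.98 in SM-Cn-/- libraries and 4.93 and 1.68 in Cn-Ctl libraries and was higher by 1.53 (SE 0.43, 95% interval 0.64 to 2.42, limma adjusted p = 0.0405). The groups were apart, and the distance rested in part on the Cn-Ctl library at 1.68, replicate 3. Without that library the difference was 0.87 (limma adjusted p = 0.583). The call was also lost without SM-Cn-/- replicate 1, 2 or 3 (adjusted p = 0.113, 0.0822 and 0.102) and by edgeR (0.0847), and DESeq2 kept it (0.0418).

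Igtp had 10.7, 9.96 and 13.9 against 6.18 and 7.90 at 24 h, with no overlap and no call (0.67, SE 0.41, limma adjusted p = 0.411). In all, 5 of 9 genes had no overlap at 24 h, where 18% of all genes had every SM-Cn-/- library higher. Endothelial markers moved with this comparison: 4 of 10 were called higher in SM-Cn-/- libraries, where 2.27% of all genes were. They were Pecam1 (1.60), Cldn5 (1.83), Tek (1.64) and Tie1 (1.14). The summed signal of the 10 markers was 1288 to 1336 against 590 to 600. The part of these cells in the difference of Gbp3 was not tested.

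**Figure D5:**
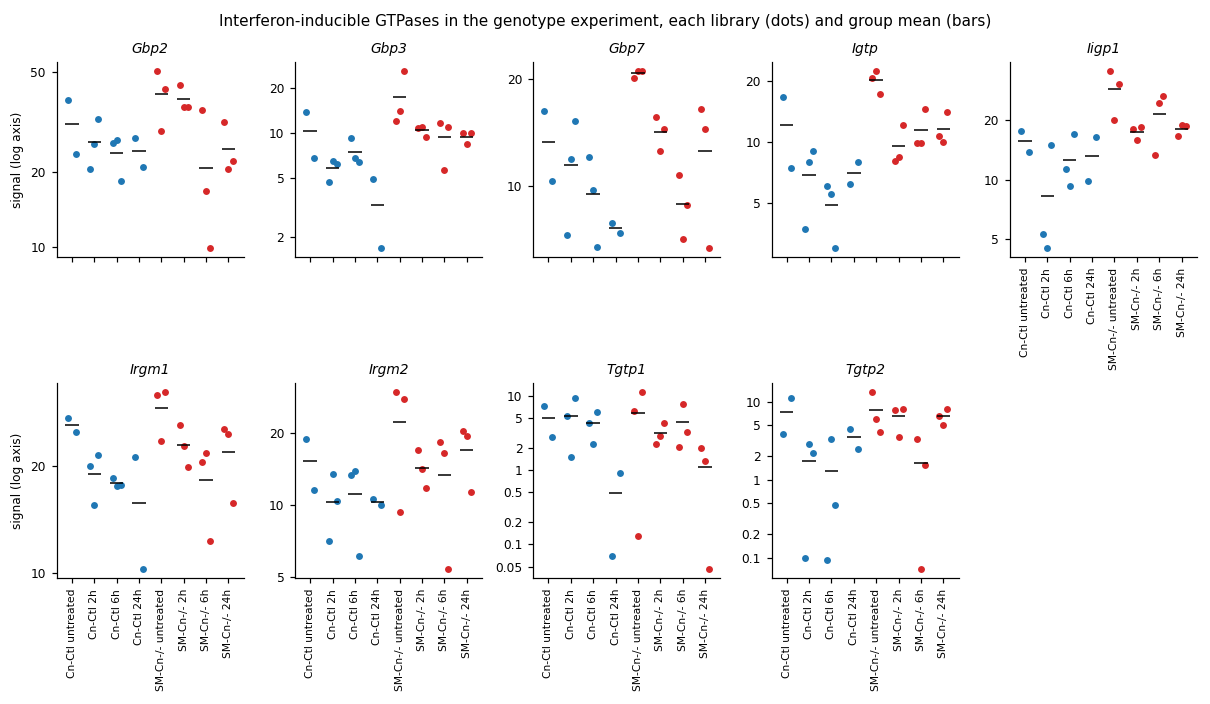
Signal of the 9 listed genes (y axis, log scale) in the 22 libraries of the genotype experiment, grouped along the x axis by genotype and hours of Ang-II; dots are libraries, bars group means, blue Cn-Ctl and red libraries labelled SM-Cn-/-. Untreated SM-Cn-/- libraries have the highest mean in each panel, and most groups overlap. No share over all genes was computed for that order.

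Ang-II was set against the untreated libraries within each genotype, and the comparisons at 2, 6 and 24 h share those untreated libraries. In Cn-Ctl the differences were below 0 for 9 of 9 genes at each time, with medians of −0.55, −0.46 and −0.73. By limma 0 of 9 were called at each time, where 6.25%, 3.97% and 5.62% of all genes were called. At an unadjusted p below 0.05 by limma stood 2, 2 and 3 genes. Tgtp2 was among them at 2 and 6 h and Tgtp1 at 24 h, each time with a Cn-Ctl library at 0 reads. Neither edgeR nor DESeq2 made a call at 2 h, and DESeq2 called 1 at 6 h and 1 at 24 h. Gbp3 had 13.9 and 6.84 untreated and 4.93 and 1.68 at 24 h in Cn-Ctl (−1.58, SE 0.47, limma adjusted p = 0.0508), Igtp differed by −1.17 at 6 h (SE 0.41, adjusted p = 0.119), and Iigp1 by −1.08 at 2 h (SE 0.41, adjusted p = 0.142). Only 2 untreated Cn-Ctl libraries stood behind these values, replicate 2 being the higher for 8 of 9 genes, and without it the medians were −0.21, −0.15 and −0.42. Without untreated replicate 3 they were −0.89, −0.79 and −0.87. The count was 1 without Cn-Ctl replicate 3 at 2 h, 1 without replicate 2 at 6 h and 2 without replicate 2 at 24 h.

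In SM-Cn-/- libraries the medians were −0.48, −0.81 and −0.70 at 2, 6 and 24 h. The median at 2 h was −0.27 without untreated replicate 1, −0.31 without untreated replicate 3 and −0.75 without untreated replicate 2. By limma 0 of 9 were called at each time, with 1, 6 and 3 at an unadjusted p below 0.05, where 1.13%, 2.35% and 0.791% of all genes were called. DESeq2 called 1 at 6 h, and edgeR called 0 at each time. Gbp7 had 20.1, 21.1 and 21 untreated and 10.7, 7.09 and 8.85 at 6 h, with no overlap and a narrow untreated group (−1.19, SE 0.34, limma adjusted p = 0.0604). Gbp2 had 50.7, 29.2 and 42.8 untreated and 35.4, 16.8 and 9.89 at 6 h, with overlap (−1.12, SE 0.34, adjusted p = 0.0814). Igtp had 20.5, 22.3 and 17.2 untreated, 8.04, 8.44 and 12.04 at 2 h and 10.7, 9.96 and 13.9 at 24 h, and it stayed below the untreated group at both times without a call (−1.05, SE 0.36, limma adjusted p = 0.199 at 2 h, and −0.78, SE 0.36, adjusted p = 0.416 at 24 h). Every treated library was below every untreated one for 4, 5 and 4 of 9 genes at 2, 6 and 24 h, where 9.41%, 8.76% and 8.01% of all genes had that order. Without SM-Cn-/- replicate 1 at 6 h limma called 1 gene.

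Other genes of the pathway in the genotype comparisons gave few calls. Of all genes 0.0139% were called in untreated aortas, and 3.71%, 1.98% and 4.95% at 2, 6 and 24 h. Of the other interferon-inducible GTPases 1 of 14 was called at 6 h, F830016B08Rik, and 1 of 14 at 24 h, Gbp4 (higher by 1.85, SE 0.54, limma adjusted p = 0.0485), with 0 untreated and at 2 h. Of the receptors and transducers 2 of 18 were called at 2 h, both lower in SM-Cn-/- libraries, Stat3 (−0.72) and Nfkbiz (−1.64). Socs3, an inhibitor of Jak-Stat signalling, was lower at 2 h (−2.70) and at 24 h (−1.87). Of 25 type II targets Wars was called at 24 h (−0.70), and of 39 type I targets Dtx3l at 2 h (1.33) and Bst2 at 6 h (1.17). Of 9 calcineurin-NFAT targets 6, 4 and 3 were called lower at 2, 6 and 24 h, where 2.98%, 1.44% and 2.68% of all genes were. In untreated aortas 0 of the 9 were called, where hardly any gene was (0.0139%). In untreated aortas the type II targets had a median difference of 0.74 (23 of 25 above 0) and the type I targets 0.57 (37 of 39 above 0). The macrophage markers had 1.00 (10 of 10 above 0), and the median over all genes was −0.0009. By limma 0 genes of these 3 lists were called. The share of all genes above 0 was not computed. Genes of a list were read in the same few libraries, with only 2 of untreated Cn-Ctl.

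The genes whose pattern over libraries was most like the mean of the GTPases were ranked among 13402 genes by the lower of 2 Pearson correlations, over the 18 libraries of the CsA experiment and the 22 of the genotype experiment. Sp100, a nuclear body protein, came first (r = 0.94 and 0.84), followed by Trim34a (0.83 and 0.80), Parp12 (0.83 and 0.79), Ifit3 (0.84 and 0.77), Gypc (0.77 and 0.79) and the death ligand Tnfsf10 (0.95 and 0.77). Cdkn2c, Lmo2, Sqor and Ifi203 completed the first 10. The values within an experiment share its groups, and the untreated CsA libraries that chose the genes are among them. Over the 12 treated libraries of the CsA experiment r was 0.80 for Sp100, 0.92 for Tnfsf10 and 0.32 for Ifi203.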

How the data were processed

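Aortic RNA was reverse transcribed from oligo-dT primers and sequenced on a Genome Analyzer IIx. Per the labels and the study's methods, the authors aligned reads with Bowtie (0.12.7) and quantified Ensembl transcripts of GRCm38 with RSEM (1.16). They deposited 1 table of normalised signal per experiment. Each signal could be turned back into whole reads (100% of values, tolerance 0.01 read) as reads plus 0.5 over a scaled library size. How that size was scaled was not given in the sources used here. Counting error alone limits values of a few reads, and 3 reads were taken as the floor.

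Members and gene lists were chosen with earlier results of these data known. All 10 members were named. From the lists of receptors, transducers and inhibitors, genes past the threshold in a treated CsA or genotype comparison were named, with 5 listed core genes of the pathway, and 1 further gene is not reported here. From other lists up to 4 genes past the threshold were named. The 10 genes of most similar pattern were also named.

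Protein-coding genes (GENCODE M21 annotation) with a signal of at least 1 in at least 2 libraries entered limma (3.58.1, R 4.3.3) with an intensity trend on log2(signal + 0.5), 1 model per table with a mean per group and two-sided tests. Folds of low genes are understated on that scale. Contrasts that use untreated libraries of the CsA experiment were not tested for the members. The alternatives were a pseudocount of 1, no filter, a signal of at least 5 in at least 3 libraries, quantile normalisation, all genes listed, a replicate block, only the groups compared, no untreated libraries, Tgtp1 and Tgtp2 summed, each library left out, and edgeR (4.0.16) and DESeq2 (1.42.0) on the recovered reads. The same alternatives for the untreated contrast and for 3 pathway lists were added after seeing the data. The fits were tested on simulated counts. Upstream windows were read with Python (3.11.15).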

Additional observations from a re-analysis of the deposited data

How the results depend on the processing

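The untreated difference between CsA and WT kept a median above 0 under each alternative run (2.74 to 3.39 with a library left out, 2.80 to 3.16 otherwise). Of 140 tested pairs of a gene and a comparison, 46 changed sign under some alternative, none of them called, and the largest of these differences was 0.60. Between CsA and WT at 24 h, Igtp reversed to −0.46 without WT replicate 2 and to −0.74 without CsA replicate 3 (−0.74 to 0.41 over libraries left out), and Gbp3 to −0.14 without CsA replicate 3 (−0.14 to 1.02). Between 24 and 2 h in WT the count of 2 called genes was 0 after quantile normalisation, 5 with only the groups compared, 6 by DESeq2 and 0 to 5 with a library left out. In CsA the count of 0 was 2 by edgeR, 2 by DESeq2 and 0 to 1 with a library left out. Against untreated Cn-Ctl the count of 0 was 0 to 1 with a library left out at 2 h, 1 by DESeq2 and 0 to 1 at 6 h, and 1 under the stricter filter, 1 by DESeq2 and 0 to 2 at 24 h. Against untreated SM-Cn-/- at 6 h it was 1 under the stricter filter, 1 after quantile normalisation, 1 by DESeq2 and 0 to 1 with a library left out. Between genotypes at 2 h it was 0 to 1 with a library left out, and at 24 h the count of 1 was 0 after quantile normalisation, 0 with only the groups compared, 0 by edgeR and 0 to 1 with a library left out. The cause was not tested. With a replicate block the count was 1 between genotypes at 2 h and 0 at 24 h, and no other count of called members moved. Deviations of same-numbered samples from their group means correlated between −0.389 and 0.292. Values for samples of unlike number are not given beside them, and deviations within groups of 2 or 3 are tied to each other. This range therefore cannot decide if the replicate numbers paired the samples. A library left out of a group of 2 leaves a lone sample that is assumed to vary like the other groups. Over all genes the share called moved by more than 1.5 times in most comparisons, between CsA and WT from 0.0146% to 5.78% at 2 h and from 0% to 11.2% at 24 h, each time with only the groups compared and by DESeq2, and between genotypes at 24 h from 1.23% without Cn-Ctl replicate 3 to 7.01% without replicate 2. The lower depth of the genotype experiment limits what could be detected there.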
